A study of Phaseolus vulgaris with 6 samples.

Results

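Proteins with a DUF579 domain are plant enzymes and wall factors, several of which act on xylan, the main hemicellulose of woody cell walls. Among the 27012 gene models of common bean (Phaseolus vulgaris) in the deposited expression table, 8 carry the description "Protein of unknown function (DUF579)". The 3 described in detail here are Phvul.001G262300, Phvul.002G016200 and Phvul.002G092400, picked out by identifier with earlier results of these data known, and the other 5 are set beside them as a description. RNA was sequenced from the top stems of the mutant nts (3 libraries) and of its wild type A18 (3 libraries). Plants of both genotypes were raised in pots at 25 °C with 14 h of light and 10 h of dark. Stem tips were collected at first flowering, once the mutant had come to look different from the wild type. The gene altered in nts is not given in the sources used here, and neither is whether the libraries of a genotype came from separate plants. The p-values therefore measure the spread between these libraries alone.

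Xylan is a chain of xylose units that is built in the Golgi apparatus, carries glucuronic acid and acetyl side groups, and fills the space between cellulose fibrils in xylem vessels and fibres. In Arabidopsis, DUF579 proteins of the GXM type transfer a methyl group to the glucuronic acid of xylan, IRX15 and IRX15-LIKE are needed for normal xylan in secondary walls, and further relatives methylate glucuronic acid on arabinogalactan proteins. The descriptions in the bean table do not name these types, and its GO terms, given below, are annotations, so the Arabidopsis roles are background.

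The gene annotation of the table separates the family into kinds. All 8 genes carry the GO term xylan biosynthetic process, which 20 genes of the table hold. Phvul.002G016200 (chromosome 2, 1740624 to 1741553) shares all its 6 terms with Phvul.003G241300, among them plant-type secondary cell wall biogenesis and Golgi membrane. Phvul.001G262300 (chromosome 1, 50955930 to 50956778) shares its 9 terms with Phvul.001G093100, and these include methyltransferase activity, methylation and trans-Golgi network. Phvul.002G092400 (chromosome 2, 16642190 to 16643155) is annotated to the chloroplast and to membranes, with no term for methylation or the secondary wall, and 4 of its 5 terms are those of Phvul.003G211500. The term glucuronoxylan 4-O-methyltransferase activity is held in the table by Phvul.005G001400 and Phvul.006G220400 alone. Each of the 3 genes is listed with 1 transcript, and the table spans them at 849, 930 and 966 bases for Phvul.001G262300, Phvul.002G016200 and Phvul.002G092400. Coordinates are those of the table, whose genome build is not given in the sources used here.

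Total counts ran from 46361548 to 61113606 in nts and from 40728394 to 62695701 in A18. One library of each genotype stood apart. Across tested genes, which are not independent, log2 CPM (counts scaled to library size) of nts replicate 3 correlated at 0.902 and 0.891 with nts replicates 1 and 2, which correlated at 0.958 with each other, and at 0.894 with A18 replicate 2. A18 replicate 2 correlated at 0.882 and 0.888 with A18 replicates 1 and 3, which correlated at 0.956. The changes of the DUF579 genes and the counts over gene lists are therefore also given without these 2 libraries. That fit keeps 2 libraries per genotype. The libraries left out were picked from these data, so its p-values and calls are no separate support.

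The question put to the DUF579 genes was whether their transcripts differ between nts and A18 stem tips. Phvul.001G262300 fell and was the 1 member that passed the test over all genes, Phvul.002G016200 was at a far lower level in every nts library without passing it, and Phvul.002G092400 averaged higher in nts, also without passing it. Levels are given in FPKM, fragment counts scaled to transcript length and library depth, as deposited. Changes are edgeR log2 changes of nts minus A18 on the deposited counts, and a gene was called where its Benjamini-Hochberg adjusted p stayed under 0.05. Of all 21126 tested genes, 0.0615% were called lower and 0.0331% higher.

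Phvul.001G262300, the gene annotated as a methyltransferase, had 5.54, 3.94 and 4.76 FPKM in nts replicates 1, 2 and 3, against 54.8, 29.5 and 32.9 FPKM in A18 replicates 1, 2 and 3. The nts libraries lay close together and far below all A18 libraries, with a gap of 5.32-fold between the highest nts and the lowest A18 library. The mean was 4.75 ± 0.7999 FPKM in nts and 39.1 ± 13.7 FPKM in A18 (SD, n = 3 each), 8.23-fold lower in nts. The log2 change was -2.94 ± 0.30 (SE; edgeR adjusted p = 0.0397), the 18th smallest p of the table. In nts replicate 3 the gene lay between the other mutant libraries. The log2 change was -3.09 without nts replicate 3 and A18 replicate 2 (edgeR adjusted p = 0.0108). In that fit 4267 genes of the whole table passed, against 20 with all libraries. The call was lost without nts replicate 1 (adjusted p = 0.198), nts replicate 2 (0.141), A18 replicate 1 (0.1304) or A18 replicate 3 (0.139), with log2 changes between -3.06 and -2.67, and in these 4 fits at most 1 gene of the whole table was called.

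Phvul.002G016200, annotated to secondary wall biogenesis, had 0.466, 0.806 and 4.94 FPKM in nts replicates 1, 2 and 3, against 228, 249.8 and 389 FPKM in A18 replicates 1, 2 and 3. These values rest on 31, 51 and 251 counts in nts, against 14638, 11279 and 21991 counts in A18. A count need not equal 1 sequenced fragment, as 29.8% to 33.0% of the counts from 1 to 39 in a library were multiples of 4, against 23.1% of the whole numbers in that range. The groups were separated by a gap of 46.03-fold, and nts replicate 3 was the highest mutant library. The mean was 2.07 ± 2.49 FPKM in nts and 289 ± 87.5 FPKM in A18 (SD, n = 3 each), 139-fold lower in nts. In A18 the gene stood between ranks 324 and 671 of all genes by FPKM, whereas in nts it stood between ranks 14635 and 19436. The log2 change of -7.02 ± 1.09 was the largest in size among the 7 tested genes of the family, and it did not pass the test over all genes (edgeR adjusted p = 0.0644, unadjusted p = 0.000473). The SD in nts exceeded the mean there through replicate 3. The log2 change was -8.74 without nts replicate 3 (adjusted p = 0.0112), without A18 replicate 2 it was -7.04 (adjusted p = 0.0439), and without both it was -8.80 (edgeR adjusted p = 0.00382). These fits called 964, 945 and 4267 genes of the whole table, against 20 with all libraries. Phvul.002G016200 did not pass without nts replicate 1 (edgeR adjusted p = 0.198), nts replicate 2 (0.168), A18 replicate 1 (0.180) or A18 replicate 3 (0.224).

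Phvul.002G092400 had 30.5, 38.5 and 16.9 FPKM in nts replicates 1, 2 and 3, against 17.4, 10.9 and 15.9 FPKM in A18 replicates 1, 2 and 3. On this scale the groups overlapped, as nts replicate 3 lay below A18 replicate 1. On CPM with TMM factors they did not, with 34.9, 42.6 and 19.7 CPM in nts against 17.8, 13.0 and 16.55 CPM in A18. The mean was 28.6 ± 10.9 FPKM in nts and 14.8 ± 3.401 FPKM in A18 (SD, n = 3 each), 1.94-fold higher in nts. The log2 change was 1.04 ± 0.32 and did not pass the test (edgeR adjusted p = 0.173, unadjusted p = 0.0155). Within each genotype the library that stood apart had the lowest level of this gene. The log2 change was 1.29 without nts replicate 3 (adjusted p = 0.044), and without both libraries it was 1.15 (edgeR adjusted p = 0.0189). Those fits called 964 and 4267 genes of the whole table, against 20 with all libraries. Leaving out any other single library kept the edgeR adjusted p of Phvul.002G092400 between 0.197 and 0.429.

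**Figure D1:**
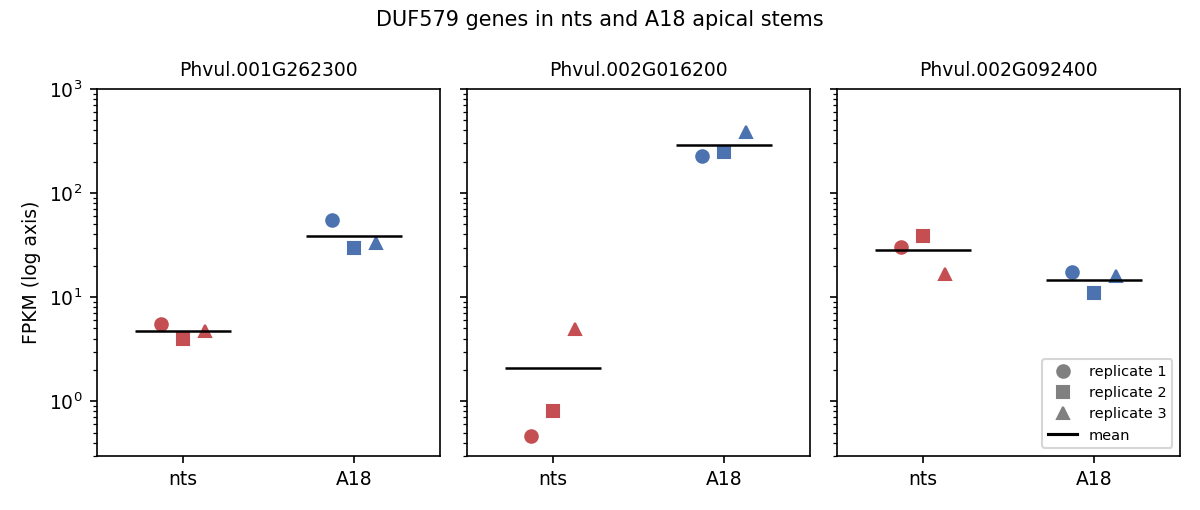
FPKM (log axis) of the 3 DUF579 genes in each nts (red) and A18 (blue) library, with a symbol per replicate number and a line at the genotype mean. Phvul.001G262300 and Phvul.002G016200 lie below A18 in all 3 nts libraries, and for Phvul.002G092400 nts replicate 3 at 16.9 FPKM lies among the A18 libraries.

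By mean FPKM, which is scaled to transcript length and so allows genes to be compared, the order of the 3 genes was opposite in the genotypes. In nts it was Phvul.002G092400, Phvul.001G262300 and Phvul.002G016200 from high to low, and in A18 it was Phvul.002G016200, Phvul.001G262300 and Phvul.002G092400. In A18 no neighbours in this order overlapped. In nts the ranges of Phvul.001G262300 and Phvul.002G016200 overlapped, with 4.76 and 4.94 FPKM in replicate 3.

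Whether the genes changed by unequal amounts was tested on the log2 ratio of each pair within a library, from log2(FPKM + 0.1). The log2 ratio of Phvul.002G016200 to Phvul.002G092400 averaged -4.31 ± 2.22 in nts and 4.27 ± 0.50 in A18 (SD, n = 3 each), a difference of -8.57. That of Phvul.001G262300 to Phvul.002G092400 averaged -2.50 ± 0.73 in nts and 1.37 ± 0.30 in A18, a difference of -3.87. For Phvul.001G262300 over Phvul.002G016200 the averages were 1.81 ± 1.71 in nts and -2.90 ± 0.77 in A18, a difference of 4.70. In all 3 pairs the nts libraries lay entirely to one side of the A18 libraries. The exact two-sided permutation test gave p = 0.1 for each pair, also after adjustment over the 3 pairs, which is the smallest p that 3 against 3 libraries allow. Without nts replicate 3 and A18 replicate 2 the differences were -9.73, -4.19 and 5.54, in the same order.

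The study's own design text sets its limits at log2 2 in either direction together with an unadjusted p of 0.05 or less. By these limits Phvul.001G262300 and Phvul.002G016200 were lower and none of the 3 was higher. Of all tested genes 3.37% were lower and 2.06% higher at these thresholds. Every nts library lay below every A18 library in CPM for Phvul.001G262300 and Phvul.002G016200, as for 12.7% of tested genes, and above for Phvul.002G092400, as for 11.9%.

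The other DUF579 genes that could be tested had edgeR log2 changes from -4.83 to -0.42 with all libraries. Phvul.001G093100 had 0 counts in all libraries, so 7 of the 8 genes were tested, and 6 of the 7 had negative log2 changes (5 of 7 without A18 replicate 2). At the thresholds of the design text 4 of the 7 were lower, and at an adjusted p under 0.05 edgeR called 1 and DESeq2 4, all lower, where DESeq2 called 6.02% of all genes lower and 4.44% higher. Without nts replicate 3 and A18 replicate 2 edgeR called 5 lower and 1 higher, which was Phvul.002G092400, against 10.3% lower and 9.67% higher over the whole table in that fit. The median log2 change of the 7 was -2.85, against 0.0022 over all tested genes. These counts include the 3 members, which were picked with earlier results known, and the 1 edgeR call was Phvul.001G262300. Of the 4 other genes tested, 0 had a log2 change above 0, against 50.18% of all tested genes, and their median was -2.165. Among these 4, 2 were lower at the thresholds of the design text, against 3.37% of all tested genes. At an adjusted p under 0.05 edgeR called 0 of the 4 and DESeq2 called 2 lower.

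Phvul.003G241300, which has the same GO terms as Phvul.002G016200, had 0.545, 0.701 and 18.1 FPKM in nts replicates 1, 2 and 3, against 85.6, 306 and 182 FPKM in A18 replicates 1, 2 and 3 (edgeR log2 change -4.83 ± 1.56, adjusted p = 0.185; -7.64 without nts replicate 3 and A18 replicate 2). Both genes thus had their highest mutant level in nts replicate 3, at 18.1 FPKM for Phvul.003G241300 and 4.94 FPKM for Phvul.002G016200. The log2 ratio of Phvul.002G016200 to Phvul.003G241300 averaged -0.62 ± 1.08 in nts and 0.74 ± 0.91 in A18 (SD, n = 3 each), and the libraries of the genotypes overlapped in this ratio.

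Of the genes annotated as glucuronoxylan 4-O-methyltransferases, Phvul.005G001400 had the highest mean FPKM of the family in both genotypes. Phvul.006G220400 came next to it in nts, but in A18 it lay below Phvul.002G016200 and Phvul.003G241300. In nts both of these ranks came through replicate 3. In nts replicates 1 and 2 Phvul.002G092400 was the highest of the family, at 30.5 and 38.5 FPKM. Phvul.005G001400 had 22.6, 24.0 and 114 FPKM in nts, against 476, 456 and 305 FPKM in A18 (edgeR log2 change -2.85 ± 0.74, adjusted p = 0.132). Phvul.006G220400 had 22.9, 19.8 and 103.4 FPKM in nts, against 114, 167 and 149 FPKM in A18 (edgeR log2 change -1.48 ± 0.69, adjusted p = 0.328). In both, nts replicate 3 was several times higher than the other mutant libraries. Without nts replicate 3 and A18 replicate 2 the log2 changes were -3.96 and -2.52.

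Phvul.003G211500, the gene most like Phvul.002G092400 in annotation, was high in 1 library of each genotype. It had 4.69, 5.92 and 27.4 FPKM in nts replicates 1, 2 and 3, against 9.07, 33.99 and 8.94 FPKM in A18 replicates 1, 2 and 3, with the high values in the libraries that stood apart (edgeR log2 change -0.42 ± 0.89, adjusted p = 0.845). Its direction turned without A18 replicate 2 (log2 change 0.67), and without both libraries it was -0.66 (edgeR adjusted p = 0.1355). Phvul.002G092400 had its low values in those libraries. The log2 ratio of Phvul.002G092400 to Phvul.003G211500 averaged 1.55 ± 1.95 in nts and 0.04 ± 1.45 in A18 (SD, n = 3 each), with overlapping libraries.

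Summed over the 8 genes, DUF579 transcripts came to 87.2, 93.7 and 289.9 FPKM in nts replicates 1, 2 and 3, against 985, 1254 and 1083 FPKM in A18. The make-up of the sum differed as well. Phvul.002G092400 held 34.9%, 41.1% and 5.82% of it in nts, against 1.77%, 0.873% and 1.47% in A18. Phvul.002G016200 held 0.535%, 0.860% and 1.71% of it in nts, against 23.1%, 19.9% and 35.9% in A18. The share of Phvul.001G262300 overlapped between the genotypes, with 6.35%, 4.21% and 1.64% in nts against 5.56%, 2.35% and 3.04% in A18. Shares of a sum depend on each other, so the higher share of Phvul.002G092400 in nts also counts the lower level of the other genes.

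**Figure D2:**
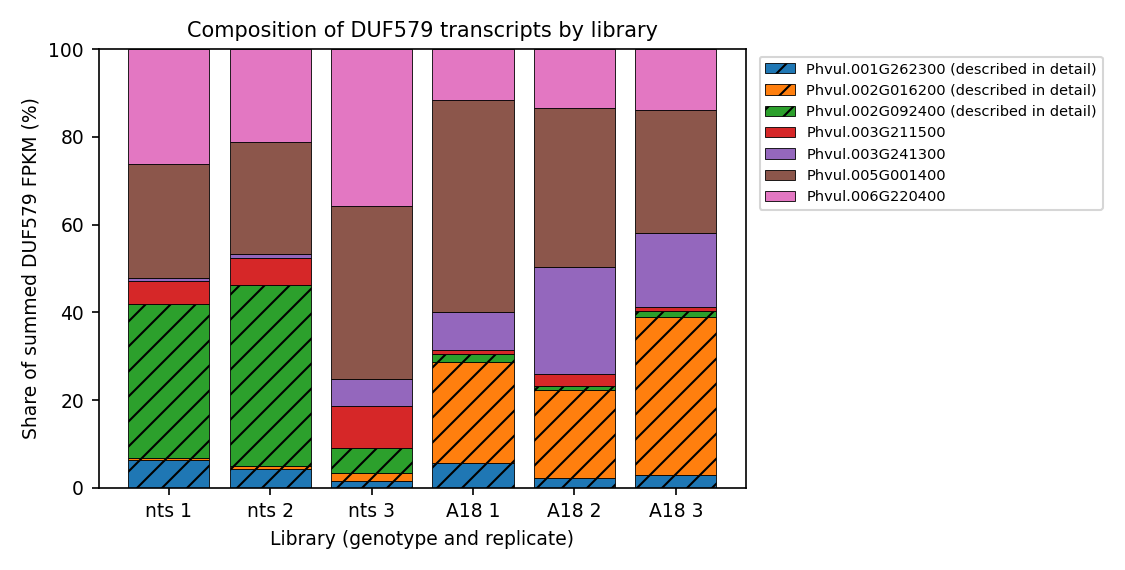
Share of the summed FPKM of the DUF579 genes held by each gene in each library (stacked bars, percent; hatched segments are the 3 genes described in detail, and Phvul.001G093100 with 0 counts is not drawn). Phvul.002G092400 (green) holds 34.9% and 41.1% in nts replicates 1 and 2 and 5.82% in nts replicate 3, and Phvul.002G016200 (orange) holds 19.9% to 35.9% in A18.

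Secondary wall markers are 84 genes such as cellulose synthase A4, laccases and FASCICLIN-like proteins 11 and 12. Of 71 tested, 36 were lower and 1 higher at the thresholds of the design text, against 3.37% lower and 2.06% higher of all tested genes. At an adjusted p under 0.05 edgeR called 2 lower and 0 higher. The median log2 change was -3.04. Leaving out nts replicate 3 and A18 replicate 2, edgeR called 44 lower and 2 higher of 72, at a median of -4.50, against 10.3% lower and 9.67% higher over the whole table. Phvul.001G262300 and Phvul.002G016200 lay in the direction of this median and Phvul.002G092400 in the opposite one. The summed level of the markers was 1644, 995 and 3511 FPKM in nts replicates 1, 2 and 3, against 11926.5, 9593 and 11685 FPKM in A18. The 3 most abundant markers tested were FASCICLIN-like proteins 11. Their edgeR log2 changes were -8.45 (Phvul.011G077700, adjusted p = 0.0867), -0.71 (Phvul.002G241700, 0.522) and -0.41 (Phvul.001G176400, 0.857). The markers of the list at 0 counts numbered 25, 21 and 20 in nts and 11, 12 and 8 in A18. Of all 27012 genes, 5566, 5492 and 5726 were at 0 counts in nts and 5125, 5366 and 5263 in A18. Those with 0 counts in all nts libraries and counts in all A18 libraries were 6, of which 3 were laccases (Phvul.001G122100, Phvul.007G093200 and Phvul.008G112200) and 3 FASCICLIN-like proteins (Phvul.006G172200, Phvul.011G075500 and Phvul.011G077200). These 6 were named for their values, and no share over all genes stands beside the count, so it is a description only. Phvul.006G172200 had only 2, 10 and 2 counts in A18 and was not tested. Like Phvul.002G016200, the marker sum was highest among mutant libraries in nts replicate 3. In whole stem tips, fewer cells that build secondary walls and less RNA per such cell cannot be told apart, and the part of this marker shift in the DUF579 values was not tested. Summed phloem markers were 870 to 997 FPKM in nts and 808 to 1208.5 FPKM in A18, meristem markers 299 to 342 FPKM in nts and 284 to 454 FPKM in A18, and green tissue markers 29288 to 32147 FPKM in nts and 16700.8 to 30936 FPKM in A18. At an unadjusted p under 0.05 in edgeR, 9.58% of all tested genes were lower and 8.39% higher. By that cut 16 of 72 green tissue markers were higher and 0 lower. Their median log2 change was 0.40, with 55 above 0, against 50.18% of all tested genes. Of 19 phloem markers 4 were lower and 0 higher (median -0.22), and of 17 meristem markers 4 were lower and 1 higher (median 0.11). At an adjusted p under 0.05 edgeR called 0 in each of these lists with all libraries. Without nts replicate 3 and A18 replicate 2 it called 4 lower and 1 higher of 19 phloem markers (median -0.83). Of 17 meristem markers that fit called 5 lower and 1 higher (median -0.32), and of 72 green tissue markers 0 lower and 6 higher (median 0.26). The shares of all genes in that fit were 10.3% lower and 9.67% higher.

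Other steps of xylan synthesis were read from lists drawn by words in the gene descriptions. The counts below stand against these shares of all tested genes. With all libraries 3.37% were lower and 2.06% higher at the thresholds of the design text. At an unadjusted p under 0.05 in edgeR 9.58% were lower and 8.39% higher. At an adjusted p under 0.05 DESeq2 called 6.02% lower and 4.44% higher, limma voom with quality weights 12.6% lower and 11.5% higher, and limma on FPKM 1.18% lower and 0.764% higher. Without nts replicate 3 and A18 replicate 2 edgeR called 10.3% lower and 9.67% higher, and 6.71% were lower and 4.86% higher at the thresholds of the design text. In the families that hold the xylan glycosyltransferases, 70 of 79 genes were tested, and 10 were lower and 2 higher at the thresholds of the design text. Their median log2 change was 0.12. At an adjusted p under 0.05 edgeR called 0, with 14 lower and 12 higher at an unadjusted p under 0.05, whereas DESeq2 called 12 lower and 5 higher, limma voom with quality weights 14 lower and 13 higher, and limma on FPKM 6 lower and 0 higher. In the edgeR fit without nts replicate 3 and A18 replicate 2 the calls were 14 lower and 12 higher. These are broad families, and most members need not act on xylan.

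The most abundant member was galacturonosyltransferase 12 (Phvul.005G091200), a relative of the Arabidopsis enzyme IRX8 that is needed for xylan. It had 1.54, 3.41 and 46.8 FPKM in nts, against 191, 434 and 377 FPKM in A18 (edgeR log2 change -4.20, adjusted p = 0.188). As in Phvul.002G016200, the mutant libraries were all below A18 and nts replicate 3 was the highest of them. An exostosin family protein (Phvul.011G085300) had 60.1, 37.0 and 176 FPKM in nts, against 99.6, 345 and 168 FPKM in A18, and its groups overlapped (edgeR adjusted p = 0.485). A nucleotide-diphospho-sugar transferase (Phvul.002G016000) had 37.7, 33.99 and 95.7 FPKM in nts, against 96.2, 267 and 134 FPKM in A18 (edgeR log2 change -1.53, adjusted p = 0.257).

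Glycogenin-like proteins 1 and 3 correspond to the Arabidopsis glucuronyltransferases GUX1 and GUX2, which add the glucuronic acid that GXM enzymes methylate, and were picked out after their values were seen. Glycogenin-like protein 1 (Phvul.009G148800) had 3.42, 4.45 and 35.0 FPKM in nts, against 139, 257 and 213 FPKM in A18 (edgeR log2 change -3.75, adjusted p = 0.144). Glycogenin-like protein 3 (Phvul.001G021800) had 2.78, 2.48 and 41.5 FPKM in nts, against 106, 156 and 105 FPKM in A18 (edgeR log2 change -2.89, adjusted p = 0.267). Both lay below A18 in every mutant library. In the other direction, 2 exostosin family genes of the glycosyltransferase list were higher at the thresholds of the design text. Their edgeR log2 changes were 2.395 (Phvul.001G107400, adjusted p = 0.146) and 2.42 (Phvul.005G130800, adjusted p = 0.13). Of the 12 genes outside the DUF579 family that carry the GO term xylan biosynthetic process, a list added after the data were seen that shares 9 genes with the glycosyltransferase list, 11 were tested. Their median log2 change was -1.99, with 5 lower at the thresholds of the design text and 8 lower at an unadjusted p under 0.05 (edgeR). At an adjusted p under 0.05 edgeR called 0, and 7 lower without nts replicate 3 and A18 replicate 2.

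Wall acetylation genes belong to families that add acetyl groups to xylan and other polymers. Of 43 tested, 1 was lower and 0 higher at the thresholds of the design text, 5 were lower and 8 higher at an unadjusted p under 0.05, and the median log2 change was 0.05. At an adjusted p under 0.05 edgeR called 0, DESeq2 5 lower and 2 higher, limma voom with quality weights 10 lower and 7 higher, and limma on FPKM 0. Trichome birefringence-like 33 (Phvul.008G220700), the most abundant, had 7.16, 11.4 and 166 FPKM in nts, against 279, 539 and 481 FPKM in A18 (edgeR log2 change -2.73, adjusted p = 0.314). Trichome birefringence-like 38 (Phvul.006G177100) had 52.8, 54.8 and 238 FPKM in nts, against 202.5, 192 and 147 FPKM in A18, and trichome birefringence-like 19 (Phvul.008G021200) had 56.7, 44.4 and 119.7 FPKM in nts, against 121, 124 and 108.5 FPKM in A18. In these 2 genes the groups overlapped through nts replicate 3 (edgeR adjusted p = 0.699 and 0.498). Without nts replicate 3 and A18 replicate 2, 8 of 44 wall acetylation genes were lower and 1 higher at the thresholds of the design text, and edgeR called 12 lower and 5 higher.

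Genes that supply UDP-xylose and UDP-glucuronate, the sugar donors of xylan, numbered 5 tested genes, and their median log2 change was 0.31. None passed an adjusted p under 0.05 in edgeR and 1, UDP-glucose 6-dehydrogenase (Phvul.004G034500), was lower at an unadjusted p under 0.05. It had 92.5, 89.7 and 99.5 FPKM in nts, against 149, 159.7 and 136 FPKM in A18 (edgeR log2 change -0.59, adjusted p = 0.217). DESeq2 called 1 lower and 0 higher, limma voom with quality weights 1 of each, and limma on FPKM 0. With both libraries that stood apart left out edgeR called 0 lower and 2 higher. UDP-XYL synthase 6 (Phvul.011G065700) had 263, 248 and 442 FPKM in nts, against 176, 465 and 197 FPKM in A18, and its groups overlapped (edgeR adjusted p = 0.857). Another UDP-glucose 6-dehydrogenase (Phvul.008G034900) had 217, 178 and 199 FPKM in nts, against 76.2, 257 and 100.8 FPKM in A18, with A18 replicate 2 above all mutant libraries (edgeR adjusted p = 0.683).

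The methyl donor cycle supplies S-adenosylmethionine, the methyl donor of methyltransferases. Of its 12 genes edgeR called 0, with 5 lower and 1 higher at an unadjusted p under 0.05, DESeq2 called 5 lower and 0 higher, limma voom with quality weights 4 lower and 4 higher, and limma on FPKM 1 lower and 0 higher. The edgeR fit without both libraries that stood apart called 3 lower and 3 higher. The median log2 change was -0.23. The most abundant gene of the list, S-adenosyl-L-homocysteine hydrolase (Phvul.003G051200), which clears the product left by methyl transfer, had 881, 1093 and 681 FPKM in nts, against 753, 1011 and 947.5 FPKM in A18, and its groups overlapped (edgeR log2 change 0.03, adjusted p = 0.977). S-adenosylmethionine synthetase 1 (Phvul.003G120201) had 414, 451 and 399 FPKM in nts, against 975, 861 and 1777 FPKM in A18 (edgeR log2 change -1.43, adjusted p = 0.109). Another S-adenosylmethionine synthetase (Phvul.003G120000) had 378, 456.5 and 351 FPKM in nts, against 810.1, 752.5 and 1410.5 FPKM in A18 (edgeR log2 change -1.24, adjusted p = 0.128). The mutant libraries of both synthetase genes lay together below all A18 libraries, as in Phvul.001G262300. How reads shared by similar genes were counted is not given in the sources used here.

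The xylan hydrolysis list lay on the higher side, with a median log2 change of 1.24 over 12 tested genes. At the thresholds of the design text 1 was higher, beta-D-xylosidase 4 (Phvul.002G206800), named here for passing them. At an adjusted p under 0.05 edgeR called 0, with 2 lower and 3 higher at an unadjusted p under 0.05, DESeq2 called 1 lower and 2 higher, limma voom with quality weights 1 lower and 4 higher, and limma on FPKM 0. In the edgeR fit without both libraries that stood apart 1 was lower and 4 higher at an adjusted p under 0.05. Its most abundant member, another beta-D-xylosidase 4 (Phvul.006G208200), had 66.9, 40.6 and 259.7 FPKM in nts, against 40.2, 86.8 and 38.2 FPKM in A18, and was highest in the libraries that stood apart (edgeR adjusted p = 0.471). Beta-xylosidase 1 (Phvul.009G254300) had the same pattern, with 59.3, 29.8 and 292 FPKM in nts, against 21.3, 75.5 and 23.4 FPKM in A18 (edgeR adjusted p = 0.4204). Alpha-xylosidase 1 (Phvul.003G035400), which acts on xyloglucan rather than xylan in Arabidopsis, had 111, 155 and 47.0 FPKM in nts, against 34.9, 30.5 and 25.9 FPKM in A18 (edgeR log2 change 1.84, adjusted p = 0.112).

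**Figure D3:**
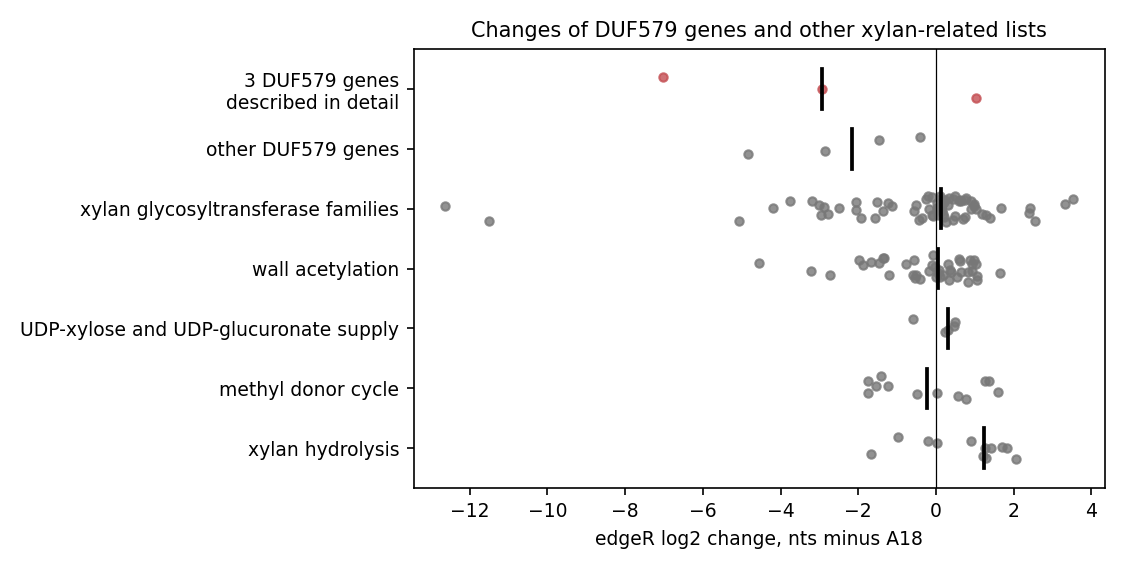
edgeR log2 change (nts minus A18) of each tested gene, with 1 point per gene and a bar at the median of each list; vertical scatter within a list has no meaning. The 3 DUF579 genes stand at -7.02, -2.94 and 1.04, the medians of the other lists run from -2.17 to 1.24, and the points beyond -11 are genes with 0 counts in all nts libraries, whose fitted size depends on the prior count.

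The genes whose log2 CPM followed each DUF579 gene most closely over the 6 libraries were ranked by Pearson's r, a description in which the libraries share the genotype difference and their depth. For Phvul.001G262300 the nearest were nudix hydrolase homolog 19 (Phvul.003G162700, r = 0.996) and a MATE efflux protein (Phvul.009G034100, r = 0.994), a membrane transporter type. The nudix hydrolase had 15.3, 15.6 and 15.3 FPKM in nts, against 28.5, 22.1 and 24.8 FPKM in A18. The remaining 3 of its 5 nearest genes, an integrase-type DNA-binding protein (Phvul.007G128100), wall associated kinase 3 (Phvul.007G138200) and histidine kinase 1 (Phvul.002G107100), had 0 counts in all nts libraries and stayed under 1 FPKM in A18.

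For Phvul.002G016200 the nearest gene was a FASCICLIN-like arabinogalactan-protein 11 (Phvul.011G074600, r = 0.997), a wall protein of the marker list. It was listed at 0, 0 and 0.489 FPKM in nts, against 112, 74.2 and 131 FPKM in A18. A WD40 repeat protein (Phvul.009G029400), a subtilisin-like endopeptidase (Phvul.009G018500), a homolog of yeast sucrose nonfermenting 4 (Phvul.007G179400) and abscisic acid responsive elements-binding factor 2 (Phvul.003G291800) followed, with r from 0.996 to 0.997. The sucrose nonfermenting 4 homolog had only 0, 0 and 2 counts in nts, against 20, 15 and 19 in A18. The endopeptidase had 0, 0 and 6 counts in nts, against 396, 264 and 410 in A18. Within the family Phvul.003G241300 and Phvul.005G001400 had r = 0.965 each with Phvul.002G016200, and 238 and 248 other genes were nearer.

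For Phvul.002G092400 the nearest were a gene described by copper, cobalt and zinc ion binding (Phvul.002G265700, r = 0.999) and a pectin lyase-like protein (Phvul.001G218400, r = 0.997). Lysophosphatidyl acyltransferase 2 (Phvul.001G136600), galacturonosyltransferase 6 (Phvul.007G177400) and cytokinin response factor 4 (Phvul.002G162500) came next, with r from 0.994 to 0.995. The pectin lyase-like gene had 22.8, 27.7 and 14.6 FPKM in nts, against 15.2, 9.94 and 14.9 FPKM in A18. Within the family Phvul.002G092400 ran opposite to all other tested genes, with r from -0.988 for Phvul.006G220400 to -0.713 for Phvul.003G211500.

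**Figure D4:**
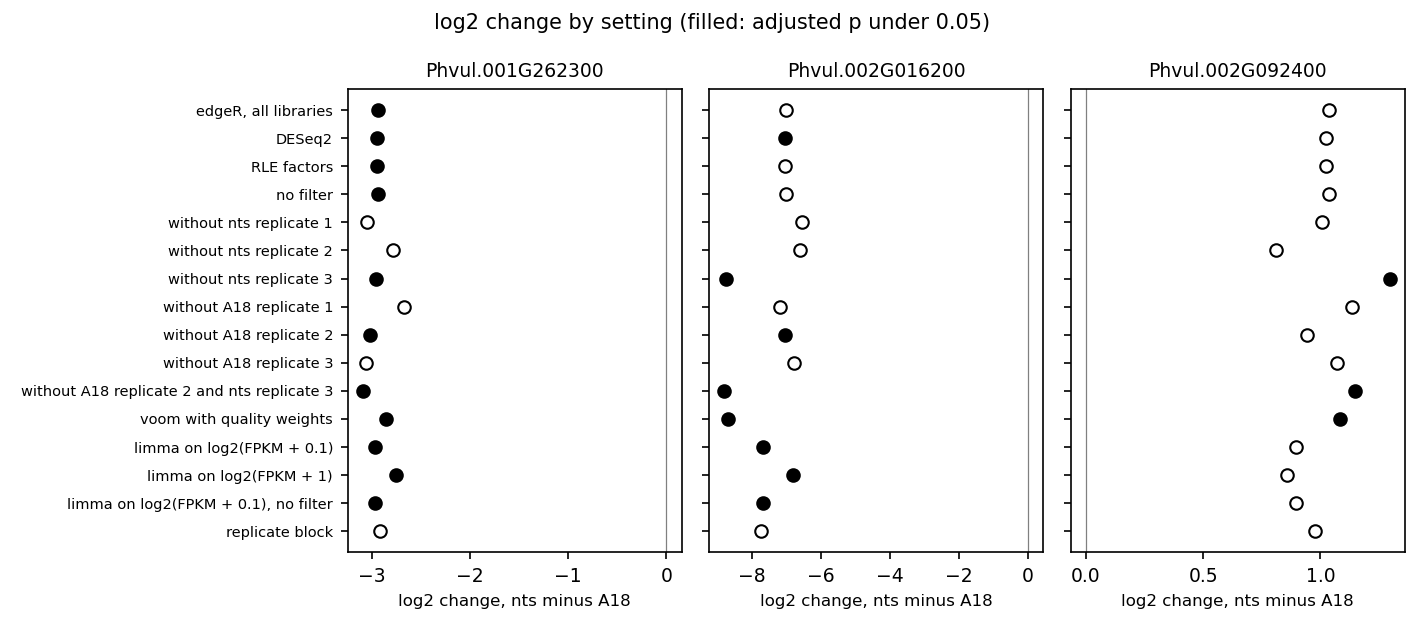
log2 change (nts minus A18) of the 3 DUF579 genes under each way of processing, with filled circles at an adjusted p under 0.05 and open circles above it; each panel has its own axis, and a grey line marks 0. The direction holds under every setting drawn, with values from -3.09 to -2.67 for Phvul.001G262300, -8.80 to -6.53 for Phvul.002G016200 and 0.81 to 1.29 for Phvul.002G092400.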

How the data were processed

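The deposited table gives whole-number counts per gene, per the file headers, and FPKM values, made by the authors, in which genes with 0 counts stand at 0.0001 and were set to 0 here. The submitters' processing notes name cutadapt 1.9 and FastQC. The aligner, counting tool, strand setting, treatment of reads shared by similar genes, annotation version and genome build were not stated in the labels or headers. No identifier of the deposited table occurs in the RefSeq gene table, which was not used.

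Counts were tested with edgeR 4.0.16 (quasi-likelihood F test, robust, TMM factors from 0.957 to 1.06, filterByExpr) in R 4.3.3, fitting genotype alone, and p-values were adjusted over all 21126 tested genes. SE is the log2 change divided by the square root of F, in size. Alternatives used DESeq2 1.42.0 and limma 3.58.1 on voom values or log2(FPKM + 0.1). The procedure was tested on simulated data in which no library was made to stand apart, so the test does not cover that feature of these data.

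The members and lists were chosen with earlier results of these data known. Genes were named by rule: the family, the 3 most abundant tested genes of a list, the 5 described genes of highest r with each member, and the gene on either side; others are marked.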

Additional observations from a re-analysis of the deposited data

How the results depend on the processing

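The direction of the 3 DUF579 genes was the same under all 15 alternatives. Leaving out 1 library at a time gave log2 changes of -3.06 to -2.67 for Phvul.001G262300, -8.74 to -6.53 for Phvul.002G016200 and 0.81 to 1.29 for Phvul.002G092400, and without both A18 replicate 2 and nts replicate 3 they were -3.09, -8.80 and 1.15. Phvul.002G016200 passed the test with DESeq2 (-7.03), voom with quality weights (-8.70), limma on log2(FPKM + 0.1) (-7.68, also with no filter) and limma on log2(FPKM + 1) (-6.81), and Phvul.002G092400 with voom (1.08). In edgeR, Phvul.002G016200 did not pass with RLE factors (adjusted p = 0.0634) or with no filter (0.0583). Phvul.002G092400 did not pass with DESeq2 (adjusted p = 0.0541) or limma on log2(FPKM + 0.1) (0.235). With the replicate number as a block, Phvul.001G262300 stood at -2.92 (edgeR adjusted p = 0.119) and Phvul.002G016200 at -7.73 (0.123). In that fit 0 genes of the table were called. The labels do not say that the numbers pair libraries, and deviations of same-numbered libraries correlated at -0.016, -0.121 and 0.040.

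The 20 genes called over the whole table became 2380 with DESeq2, 37 with no filter, 4267 without both libraries, 5087 with voom, 426, 425 and 404 with limma on log2(FPKM + 0.1), log2(FPKM + 1) and log2(FPKM + 0.1) with no filter, and 0 to 964 with 1 library left out. The 1147 genes past the thresholds of the design text became 2477 without both libraries, 2333 with voom and 1013 to 1768 with 1 library left out. Phvul.003G211500 ran from -1.71 to 0.67 with 1 library left out. The differences between the changes of the 3 pairs kept their sign in all 9 alternatives. The cause of these shifts was not tested.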

Other observations

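The genes next to the DUF579 members in the table were set beside them. On either side of Phvul.002G016200, WRKY DNA-binding protein 7 (Phvul.002G016100) had 33.6, 31.2 and 17.6 FPKM in nts, against 34.4, 31.3 and 28.9 FPKM in A18, and sumo conjugation enzyme 1 (Phvul.002G016300) had 149, 126 and 119.6 FPKM in nts, against 138, 104 and 115 FPKM in A18. The sugar transferase Phvul.002G016000 lies 19437 bases before Phvul.002G016200 with 1 gene between them, and is the 1 gene of the glycosyltransferase list within 100000 bases of a member. Before Phvul.001G262300 lies a gene with no description (Phvul.001G262200), with 22.7, 30.6 and 28.0 FPKM in nts against 37.8, 24.2 and 43.2 FPKM in A18 (edgeR log2 change -0.28, adjusted p = 0.588). After Phvul.001G262300 comes a lipid transfer protein (Phvul.001G262400), with 153, 84.5 and 280.3 FPKM in nts against 636, 232 and 490.2 FPKM in A18 (edgeR log2 change -1.27, adjusted p = 0.279). Before Phvul.002G092400, at 15001 bases, lies a leucine-rich repeat protein (Phvul.002G092300) with 0.0436, 0.135 and 0.799 FPKM in nts, against 5.89, 5.76 and 14.1 FPKM in A18 (edgeR log2 change -4.58, adjusted p = 0.113), the opposite direction to its neighbour. After Phvul.002G092400 lies an early-responsive to dehydration stress protein (Phvul.002G092500), with 10.2, 8.26 and 8.71 FPKM in nts against 8.38, 10.4 and 10.45 FPKM in A18 (edgeR log2 change -0.04, adjusted p = 0.950).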
